A study of Mus musculus with 6 samples.

Results

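The iron genes described here are 10 genes that mouse liver uses to take up, store and release iron and to control that release: Hamp, Hamp2, Hfe, Hfe2 (current symbol Hjv), Tfr2, Tfrc, Trf, Fth1, Ftl1 and Slc40a1. They were chosen by name, and a probe counted as one of theirs where its accession maps to the symbol in RefSeq. All 10 were measured, among 20659 tested features (one probe per gene or unnamed transcript), of which 13312 have a symbol. Liver RNA came from male mice on the C57BL/6J background that lack Apoe, in both diet groups, so every value describes animals without apolipoprotein E, which develop high plasma cholesterol. The control group (9 mice) ate a purified Western diet that contained palm oil (20%) and cholesterol (0.15%). The treated group (10 mice) ate the same diet with 1% squalene, an intermediate of cholesterol synthesis. The stated equivalent was 1 g/kg, and the weight that this refers to is not specified here. The intervention lasted 11 weeks, and the animals' ages are not given in the sources used here. RNA was combined into 4 pools per diet, so differences between single animals inside a pool are averaged out. Each two-colour array set 1 squalene pool against 1 Western pool, and 6 arrays covered 4 pool pairs, which are the replicates (n = 4). Squalene RNA was in the red dye, Cy5, in pairs 1 and 4 and in the green dye, Cy3, in pairs 2 and 3.

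Iron leaves macrophages, gut cells and hepatocytes through ferroportin, the product of Slc40a1. Hepcidin, the hormone that hepatocytes make from Hamp, binds ferroportin and causes its breakdown, so high hepcidin lowers plasma iron. Hamp transcription follows bone morphogenetic protein (BMP) and SMAD signalling, in which the proteins of Hfe, Hfe2 and Tfr2 take part as sensors of iron, and rises in inflammation through interleukin 6 and STAT3. Iron inside cells acts on ferritin and transferrin receptor mostly after transcription, through iron regulatory proteins that bind their messenger RNAs, so transcript levels show only part of that control.

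Mice carry a pair of hepcidin genes, Hamp and Hamp2, and their promoters are shown because the liver regulators named below act on such sequence. Whether the sequences bear on the measured ratios of the pair was not tested. Both are from RefSeq, build GRCm38.p6, minus strand, 5' to 3', and cover the 250 bases before the start of the transcript, at chr7:30944030-30944279 for Hamp and chr7:30924182-30924431 for Hamp2. The capitals mark, first, the core of a BMP-responsive element (GGCGCC) in Hamp with the bases aligned to it in Hamp2, and second, a match to the STAT motif TTCNNNGAA.
Hamp: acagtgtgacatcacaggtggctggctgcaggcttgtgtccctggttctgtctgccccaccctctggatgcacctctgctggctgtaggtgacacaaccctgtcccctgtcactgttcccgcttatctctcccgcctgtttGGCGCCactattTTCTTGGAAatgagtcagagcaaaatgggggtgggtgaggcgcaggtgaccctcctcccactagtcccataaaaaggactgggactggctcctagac
Hamp2: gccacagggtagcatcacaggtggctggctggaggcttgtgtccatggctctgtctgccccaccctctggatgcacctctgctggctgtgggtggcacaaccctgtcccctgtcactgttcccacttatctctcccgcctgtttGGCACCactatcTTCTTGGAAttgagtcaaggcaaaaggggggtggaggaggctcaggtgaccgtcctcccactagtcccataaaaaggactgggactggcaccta
Of 247 aligned bases 227 were identical (91.9%), with 20 mismatches and 6 gap bases. The BMP-responsive element core lay 109 to 104 bases before the start in Hamp. The aligned hexamer of Hamp2, 106 to 101 bases before its start, differed from it by G4A, counted from 1 at the element's 5' end. The STAT motif matched both promoters, 97 to 89 bases before the start in Hamp and 94 to 86 in Hamp2, with the same 9 letters. Searched on both strands, GGCGCC was in 9.59% and TTCNNNGAA in 7.02% of 32851 RefSeq promoter windows of this length, so neither is rare, and a match describes letters, not binding. Of the 10 genes, 7 had at least one promoter in the table. Tfrc also held GGCGCC, 89 to 84 bases before one of its starts, and the windows of the other matched genes held neither motif.

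None of the 10 iron genes differed between the diets past an adjusted p of 0.05 (limma, Benjamini-Hochberg adjustment over all features; adjusted p 0.9999 for each), and neither did any other feature (0% of 20659, with a smallest adjusted p of 0.158). At an unadjusted p under 0.05 there was 1 of 10, Tfrc, against 2.47% of all features. That share is 510 features, fewer than the 1033 that chance alone would give if no feature differed. A share above 2.47% is therefore not in itself an excess over chance. Mean ratios of squalene over Western were below 0 on the log2 scale for 6 genes and above 0 for 4, with a median of -0.05 against 0.0028 for all features. The largest mean difference was 1.10-fold. Ratios were above 0 in all 4 pairs for 1 gene (Tfrc), where 3.34% of all features were. They were below 0 in all 4 pairs for none of the 10, where 3.04% of all features were. The other 9 had ratios of both signs. Levels of the Western and squalene pools overlapped for all 10. The share of all features with such overlap is not given here, so this count does not set the iron genes apart. Spread differed widely within the group: the SD between pairs ran from 0.04 for Tfrc to 0.75 for Trf, against a median of 0.16 over all features. That SD includes any split by dye, which the fit removes. The SE of the mean ratio from the fit ran from 0.05 for Hfe2 to 0.27 for Hamp2, and was 0.09 for Trf, against a median of 0.07 over all features.

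**Figure D1:**
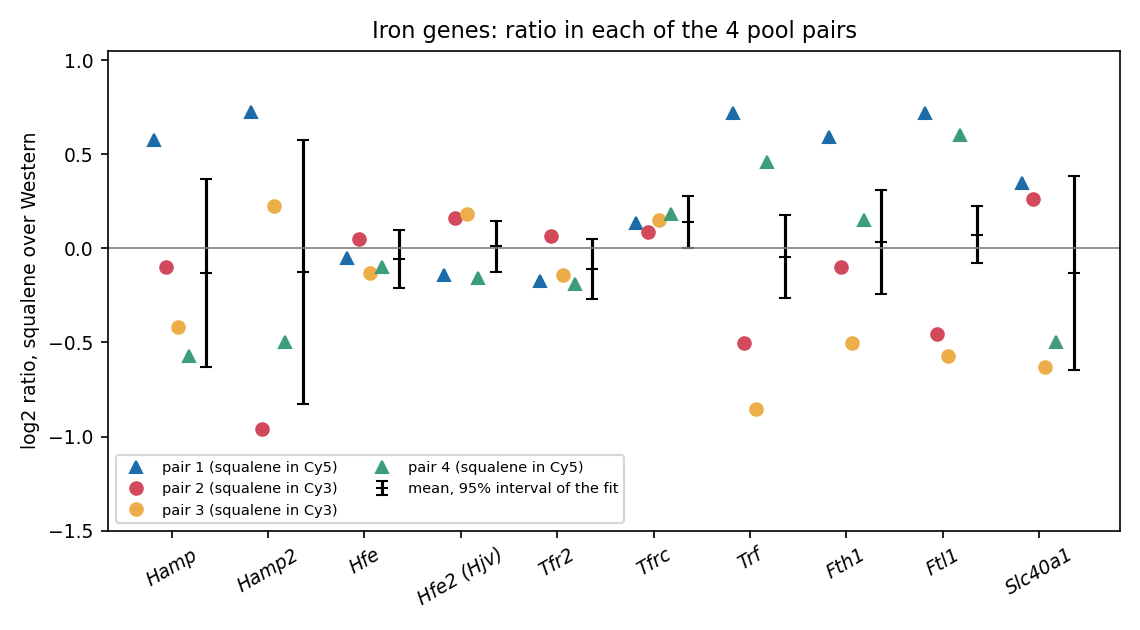
Log2 ratio of squalene over Western (vertical axis) for each of the 10 iron genes, with triangles for pairs with squalene in Cy5, circles for pairs with squalene in Cy3, and a bar for the mean with its 95% interval from the fit. Tfrc has its 4 points together above 0, from 0.09 to 0.18, while Hamp, Hamp2 and Slc40a1 scatter on both sides of 0 and Trf and Ftl1 divide by dye.

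Hepcidin, encoded by Hamp, varied more from pair to pair than between diets. Its log2 intensity was 14.35, 14.44, 14.67 and 14.57 in the Western pools of pairs 1 to 4, and 14.92, 14.34, 14.25 and 14.00 in the squalene pools. The squalene pools held both the highest value, in pair 1, and the 3 lowest, in pairs 2, 3 and 4, so the Western range lies inside the squalene range. The log2 ratios were 0.57, -0.10, -0.42 and -0.57 in pairs 1 to 4, with a mean of -0.13 (SE 0.19, 95% interval -0.63 to 0.37, n = 4 pairs). That interval covers both a lower and a higher level of hepcidin messenger RNA with squalene. The SD of the ratios, 0.51, was larger than that of 95.8% of features. Without pair 1 Hamp was at -0.42, and without pair 4 it was at 0.16, with the sign turned. Pairs 1 and 4 share a dye orientation, so for any gene the fit moves by equal and opposite amounts when either is left out. The pair of arrays on slide 1, from pairs 1 and 2, averaged 0.21, and slide 2, with all 4 pairs, gave -0.11. For the pairs they share the slides were alike: pairs 1 and 2 were at 0.52 and -0.10 on slide 1 and at 0.63 and -0.10 on slide 2.

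The second hepcidin gene, Hamp2, whose peptide does not act on iron in the way hepcidin does, had a different pattern over the pairs. Its log2 intensity was 8.26, 9.34, 7.99 and 9.06 in the Western pools and 8.99, 8.38, 8.22 and 8.56 in the squalene pools of pairs 1 to 4. The Western pools had both the highest and the lowest value, with an SD of 0.64 against 0.33 in the squalene pools. The ratios were 0.73, -0.96, 0.22 and -0.50, with a mean of -0.13 (SE 0.27, 95% interval -0.83 to 0.57, n = 4 pairs). Hamp and Hamp2 shared the sign of the ratio in pairs 1, 2 and 4 and had opposite signs in pair 3, though their means were alike. Probe sequences were not used here, so whether the 2 probes read each other's transcript was not tested. Leaving out a single pair moved Hamp2 between -0.43 and 0.18.

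**Figure D2:**
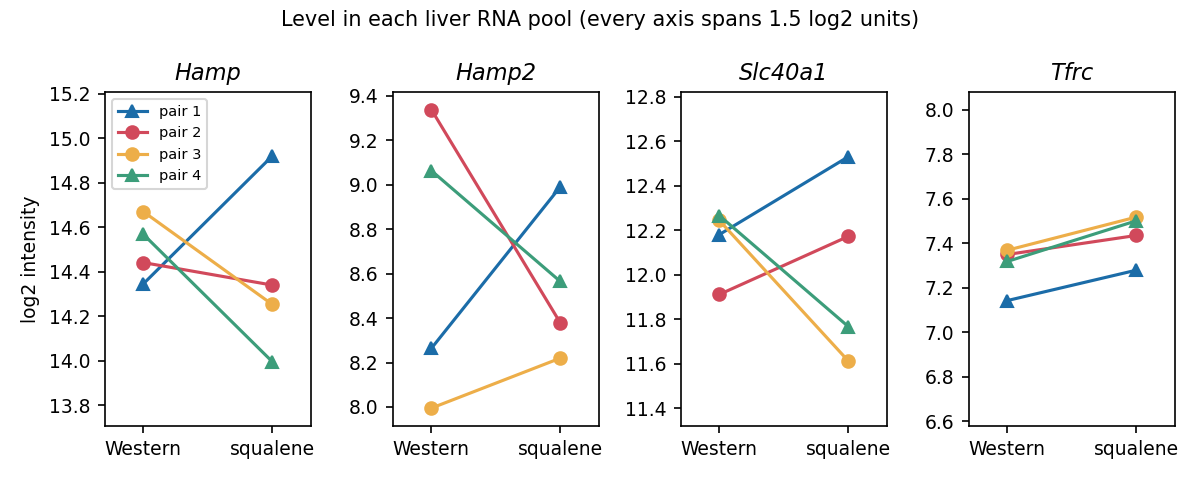
Log2 intensity (vertical axis, with each panel spanning the same number of log2 units around its own level) of Hamp, Hamp2, Slc40a1 and Tfrc in the Western and squalene pool of each pair, joined by a line. Hamp lines run up in pair 1 and down in the others, Slc40a1 lines run up in pairs 1 and 2 and down in pairs 3 and 4, and the 4 Tfrc lines run up in parallel by 0.09 to 0.18.

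The 3 iron sensors of hepatocytes had mean ratios between -0.11 and 0.01, with SDs between pairs of 0.08 for Hfe, 0.12 for Tfr2 and 0.19 for Hfe2, the last above the median of all features. Hfe, a protein related to the major histocompatibility family whose loss causes hereditary iron overload, had ratios of -0.05, 0.05, -0.13 and -0.10 in pairs 1 to 4 and a mean of -0.06 (SE 0.06). Hfe2, now Hjv, encodes hemojuvelin, the BMP co-receptor; its ratios were -0.14, 0.16, 0.18 and -0.16, with a mean of 0.01 (SE 0.05). Tfr2, the transferrin receptor that senses loaded transferrin, was below 0 in pairs 1, 3 and 4, at -0.18, -0.14 and -0.19, and above it in pair 2, at 0.07. Its mean of -0.11 (SE 0.06) did not pass 0.05 before adjustment. The 95% intervals were -0.21 to 0.10 for Hfe, -0.12 to 0.15 for Hfe2 and -0.27 to 0.05 for Tfr2, so the data bound a diet difference in these sensors more closely than in Hamp. The 4 ratios of Hfe2 were above 0 where squalene was in Cy3 and below 0 where it was in Cy5. Its interval counts none of that split. With no dye term the SE was 0.09 for Hfe2, against 0.19 for Hamp. The repeat arrays of pair 1 gave Hfe2 ratios of -0.02 and -0.27.

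Tfrc, the transferrin receptor that brings loaded transferrin into cells, was the gene with the smallest spread. Its log2 intensity was 7.14, 7.35, 7.37 and 7.32 in the Western pools and 7.28, 7.43, 7.52 and 7.50 in the squalene pools of pairs 1 to 4. The squalene pool was the higher one in every pair, but the squalene pool of pair 1 lay below 3 of the Western pools, so the groups overlap. The ratios were 0.14, 0.09, 0.15 and 0.18, with a mean of 0.14 (SE 0.05, 95% interval 0.0005 to 0.28, n = 4 pairs), or 1.10-fold, under 0.05 before adjustment and with an adjusted p of 0.9999 (limma, Benjamini-Hochberg). An exact two-sided test that turns the signs of the 4 pair ratios gave Tfrc p = 0.125, the smallest it can give with 4 pairs, so that test could not pass 0.05 for any gene. Only 2.22% of features had a lower SD than its 0.04. This probe has 10 spots on each array, of which all 10 were averaged on 5 arrays and 7 on the slide 1 array of pair 2, after outlier spots were left out. The SD over its spots within an array was 0.042 (the array with 7) to 0.115, so its value is an average of more measurements than that of the other genes. A second Tfrc probe, with 1 spot, gave 0.21, 0.0042, 0.0044 and 0.04, with a mean of 0.06, and another was not well above background in any pair. Tfrc was also the dimmest of the 10 genes, with a mean log2 intensity of 7.39, against 5.98 for the probe not well above background. The effect of low intensity on the size and spread of its ratios was not tested. With the kept probes averaged, Tfrc was at 0.10 and no longer under 0.05 before adjustment. Across 11 other settings of the processing the mean ran from 0.10 to 0.22, always above 0, and the unadjusted limma p was under 0.05 in 3 of them. It was under 0.05 in none of the 4 fits that left out a pair, where the mean ran from 0.12 to 0.15.

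The ratios of transferrin and of both ferritin subunits divided by dye orientation. Trf encodes transferrin, the iron carrier that the liver secretes; its log2 ratios were 0.72, -0.50, -0.85 and 0.46 in pairs 1 to 4. Ftl1, the light subunit of the ferritin shell that stores iron, was at 0.72, -0.45, -0.57 and 0.60. Fth1, the heavy subunit, which oxidises iron for storage, was at 0.59, -0.10, -0.50 and 0.15. All 3 were above 0 in the pairs with squalene in Cy5 and below 0 in those with squalene in Cy3. The fit removes such a split as a dye term, and the means that remained were -0.04 (SE 0.09) for Trf, 0.03 (SE 0.11) for Fth1 and 0.07 (SE 0.06) for Ftl1, none under 0.05 before adjustment. Their 95% intervals, which count no dye spread, were -0.27 to 0.18, -0.24 to 0.31 and -0.08 to 0.22. The other Trf probe gave like ratios (0.68, -0.44, -0.78 and 0.42), and the other Ftl1 probe gave 0.43, -0.16, 0.06 and 0.20, which does not divide by dye. Ferritin genes have near-identical processed copies in the mouse genome, so what else these probes read is uncertain.

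The dye term, the size of the red-over-green shift on the log2 scale, was 0.63 (SE 0.09) for Trf, 0.59 (SE 0.06) for Ftl1 and 0.34 (SE 0.11) for Fth1. All 3 were under 0.05 before adjustment and none after it, with adjusted p from 0.09 for Ftl1 to 0.275 for Fth1 (limma, Benjamini-Hochberg). Of the 10 genes, 4 had a dye term at an unadjusted p under 0.05 (Hfe2 the fourth, at -0.16), against 15.3% of all features, and 0% of features passed the adjusted threshold. The pattern of signs seen in the 3 bright genes, above 0 in pairs 1 and 4 and below 0 in pairs 2 and 3, was found in 15.2% of 20658 features with a ratio in each pair. Among the 189 of them with a mean log2 intensity of 16 or more, a limit chosen after the values were seen, it was found in 60.3%, against 14.7% of the 20469 dimmer ones. Trf, Ftl1 and Fth1 were the members above that intensity. Across 5 ways of processing the signals the dye term ran from 0.41 to 1.23 for Trf, from 0.37 to 1.18 for Ftl1 and from 0.17 to 0.88 for Fth1. The calls changed with it: with median centring the adjusted p was 0.0066 for Trf and Ftl1 and 0.013 for Fth1, and with the deposited table it was 0.0352 for Trf and 0.0426 for Ftl1 (limma, Benjamini-Hochberg). Fth1 was not under 0.05 before adjustment with the deposited table or the scanner software's processed signals. For Hfe2 the adjusted p was 0.0382 with the deposited table, at -0.51, and the sign turned with median centring, at 0.06. Dye orientation and the pools that share it cannot be told apart in this design.

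**Figure D3:**
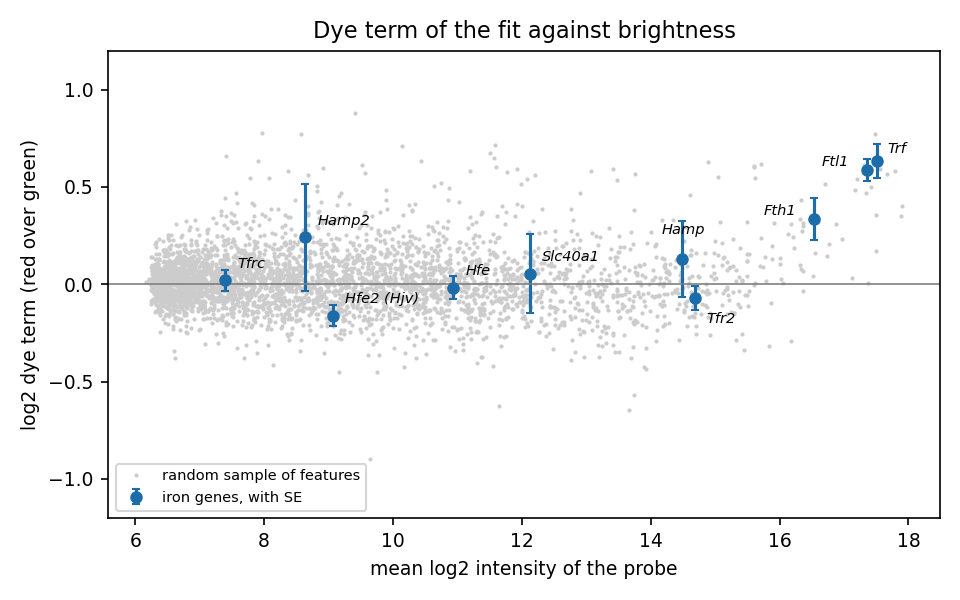
Dye term on the log2 scale (vertical axis, red over green) against the mean log2 intensity of the probe (horizontal axis) for the 10 iron genes, with SE bars, over a random sample of all features in grey. Trf at 0.63, Ftl1 at 0.59 and Fth1 at 0.34 lie at the bright end, where grey points also lie above 0, and the other 7 genes lie nearer 0.

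Slc40a1, which encodes ferroportin, the iron exporter, varied over the pairs much as the median of Kupffer cell markers did, with a root mean square difference of 0.10 between them. Its log2 intensity was 12.18, 11.91, 12.24 and 12.27 in the Western pools and 12.53, 12.17, 11.61 and 11.77 in the squalene pools of pairs 1 to 4. The squalene pools held the highest value, in pair 1, and the lowest 2, in pairs 3 and 4. The ratios were 0.35, 0.26, -0.63 and -0.50, with a mean of -0.13 (SE 0.20, 95% interval -0.64 to 0.39, n = 4 pairs). Leaving out pair 3 or 4 turned the mean to 0.09 or 0.08, and leaving out pair 1 or 2 gave values down to -0.35. Slide 1, which holds pairs 1 and 2, averaged 0.29, against -0.12 on slide 2 with all 4 pairs. On slide 2 pairs 1 and 2 were at 0.38 and 0.26, against 0.31 and 0.26 on slide 1, so the slides were alike for the pairs they share. Ferroportin is abundant in liver macrophages. Of 13 listed Kupffer cell and macrophage markers 12 were measured, and the median of their ratios was 0.20, 0.17, -0.54 and -0.47 in pairs 1 to 4. All 12 were below 0 in pairs 3 and 4, and 6 of 12 had the sign of Slc40a1 in each pair, as did 8.23% of 13311 features with a symbol. Their mean log2 intensity was 11.93 to 12.59 in Western pools and 11.88 to 12.78 in squalene pools, and 0 of 12 were at an unadjusted p under 0.05. All 12, with the defining Kupffer cell genes Clec4f, Vsig4 and Timd4 among them, were well above background, and Cd68 had no named probe. In pair 1, where Slc40a1 was at 0.35, Clec4f was at -0.54 and Vsig4 at -0.52, against its sign, while Timd4 was at 0.25. The part of macrophage content in the Slc40a1 ratios was not tested, and in these bulk samples fewer cells of a type and less RNA per cell cannot be told apart.

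**Figure D4:**
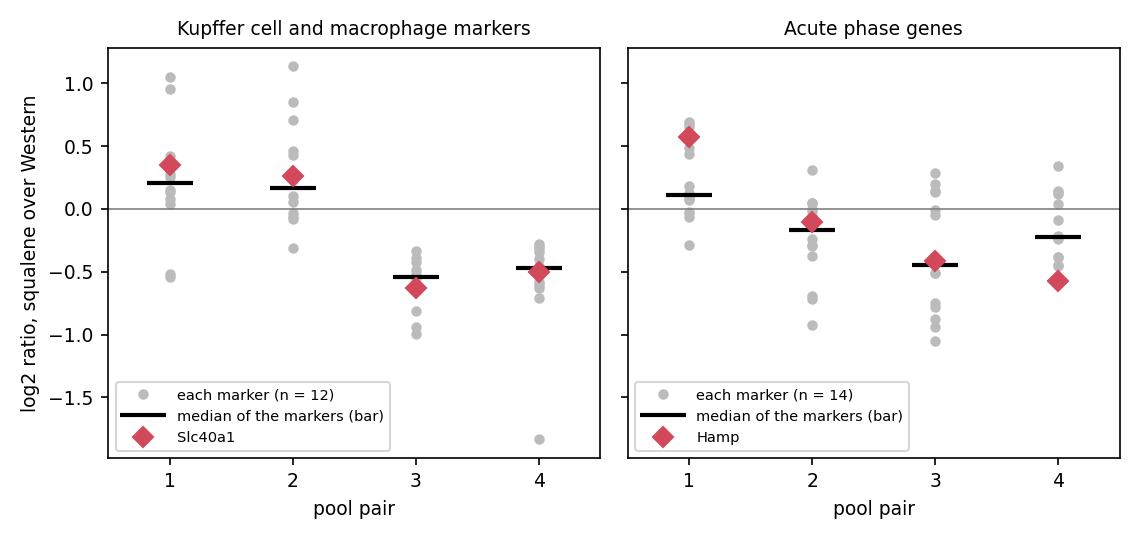
Log2 ratio of squalene over Western (vertical axis) in pool pairs 1 to 4 (horizontal axis), with Slc40a1 over 12 Kupffer cell and macrophage markers on the left and Hamp over 14 acute phase genes on the right; grey points are markers, the bar is their median and the diamond the iron gene. Slc40a1 follows the marker medians of 0.20, 0.17, -0.54 and -0.47, and Hamp lies above the acute phase median in pair 1 and below it in pair 4.

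Hamp also responds to inflammation, so acute phase genes are given beside it. All 14 listed were measured, and their median ratios were 0.11, -0.16, -0.45 and -0.22 in pairs 1 to 4, the same signs as Hamp, while 3 of the 14 had the sign of Hamp in each pair, as did 7.82% of 13311 features. Their mean log2 intensity was 14.11 to 14.19 in Western pools and 13.77 to 14.33 in squalene pools, with a list median ratio of -0.09 and 0 at an unadjusted p under 0.05. Hamp had the same sign in every pair as 6 of 9 lipid-associated macrophage markers and 4 of 12 Kupffer cell and macrophage markers. Its root mean square difference from the list medians was 0.24 for the Kupffer cell list, 0.29 for the acute phase list and 0.39 for the lipid-associated macrophage list. It was 0.29 for proliferation markers too, and 0.36 for endothelial markers and for other iron, heme and haemoglobin transport genes. The acute phase and lipid-associated macrophage lists were thus not set apart by this measure. The part of inflammation or of macrophage content in the Hamp ratios was not tested. The 5 genes with a symbol whose ratios lay nearest to those of Hamp over the 4 pairs, by root mean square difference, were Batf (0.042), Vim (0.083), Mefv (0.092), Arhgdib (0.102) and Msn (0.103), against a median of 0.48 over 13310 candidates. They are the closest of many candidates over only 4 pairs, and no test was made of them. Among the iron genes the nearest to Hamp was Slc40a1 (0.241) and the farthest Ftl1 (0.622).

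Of the genes that control hepcidin through BMP and SMAD proteins, 18 of 18 were measured, 10 with a mean above 0 and 8 below, with a median ratio of 0.01. At an unadjusted p under 0.05 there was 1, higher, against 2.47% of all features, and 0 after adjustment over all features (limma, Benjamini-Hochberg). This was Bmpr2, a type II BMP receptor, with ratios of 0.27, 0.13, 0.06 and 0.16 and a mean of 0.16 (SE 0.06). Bmp6, the ligand through which liver endothelium reports iron to hepatocytes, was at 0.25, -0.07, 0.26 and 0.26, with a mean of 0.17 (SE 0.07). Its probe was dim, with a mean log2 intensity of 7.16 in Western and 7.33 in squalene pools. Bmp4, a related ligand, had a mean of -0.14 (SE 0.08). Atoh8, a transcription factor of the BMP response, had a mean of 0.15 (SE 0.11), with 0.61 in pair 2 and -0.25 in pair 4. None of the 18 had the sign of the Hamp ratio in every pair (0 of 18), as did 7.82% of 13311 features with a symbol.

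The other regulators of hepcidin, of inflammation, the liver and the marrow, were measured in 11 of 13 cases, with Il6 and Erfe not well above background, and their median ratio was 0.01. None was at an unadjusted p under 0.05 by limma (0 of 11), against 2.47% of all features. Socs3, which is induced by STAT3 and damps its signal, had ratios of 0.13, -0.07, -0.69 and -0.56 and a mean of -0.30 (SE 0.16). Of the 11, 2 had the sign of the Hamp ratio in every pair, Socs3 among them, as did 7.82% of 13311 features with a symbol. In the lists below this count was 0 of 6 for iron regulatory proteins, chaperones and ferritin turnover, 1 of 16 for transport and 0 of 15 for mitochondrial iron. Inhbb, the activin B subunit that raises hepcidin in inflammation, was at 0.14, -0.79, -0.83 and 0.64, with a mean of -0.21 (SE 0.09). Its ratios divided by dye orientation, as those of Trf did. The SD between pairs was 0.72, and the SE counts none of the dye spread. Cebpa, a liver transcription factor that drives Hamp, was at 0.09 (SE 0.06), and Il1b, an inflammatory cytokine, at 0.25 (SE 0.20).

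Of 7 iron regulatory proteins, iron chaperones and ferritin turnover genes 6 were measured (Ftmt was not well above background), with a median of 0.03 and 0 of 6 at an unadjusted p under 0.05, against 2.47% of all features. Fbxl5, which marks an iron regulatory protein for breakdown when iron is plentiful, was at 0.07 (SE 0.08). The iron chaperones Pcbp2 and Pcbp1 were at 0.07 (SE 0.07) and 0.05 (SE 0.06). Aco1, an iron regulatory protein that is aconitase when it holds an iron-sulphur cluster, was at -0.03 (SE 0.08). Ratios of both signs were seen in each of the 4.

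Of the other iron, heme and haemoglobin transport genes, 16 of 18 were measured, 13 with a mean below 0 and 3 above, where 9959 of 20659 features were below 0. Their median was -0.06 against 0.0028 for all features. The genes Cybrd1 and Cd163 were not well above background. At an unadjusted p under 0.05 there were 2 of 16, both lower, against 2.47% of all features, and 0 after adjustment (limma, Benjamini-Hochberg). Heph, hephaestin, a copper-containing oxidase that prepares iron for transferrin, was below 0 in all 4 pairs, as were 3.04% of features, at -0.13, -0.19, -0.11 and -0.21, with a mean of -0.16 (SE 0.06). Heph was dim, with a mean log2 intensity of 7.14 in Western and 6.98 in squalene pools, and the effect of this on its ratios was not tested. Lcn2, lipocalin 2, an acute phase protein that binds bacterial iron carriers, was at 0.44, -0.78, -0.96 and -0.14, with a mean of -0.36 (SE 0.11). Its ratios were of both signs. Steap2, a metalloreductase, was at -0.25 (SE 0.15) and Slc39a14, a carrier of iron not bound to transferrin, at 0.14 (SE 0.08).

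All 15 genes of mitochondrial iron import and iron-sulphur cluster assembly were measured, with a median of 0.02, 10 above 0 and 5 below, and 0 at an unadjusted p under 0.05, against 2.47% of all features. Nfs1, the cysteine desulphurase that supplies sulphur, was at 0.08 (SE 0.05). Iscu, the scaffold on which clusters form, was at 0.06 (SE 0.06). The mitochondrial transporter Abcb10 was at -0.12 (SE 0.09) and the cochaperone Hscb at -0.11 (SE 0.08). Over the 5 pathway lists together, 66 of 71 genes were measured, 3 (4.55%) at an unadjusted p under 0.05, against 2.47% of all features, 1 higher and 2 lower. The 2.47% is 510 features, where chance alone would give 1033, so 4.55% is not an excess over chance.

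Markers of the cells in these pools varied from pair to pair. All 12 hepatocyte markers were measured, with a median of 0.05 and a mean log2 intensity of 15.95 to 16.14 over all pools, so the labelled tissue has its defining transcripts. Of 10 red cell transcripts, 7 were measured, all with a mean below 0 and a median of -0.48, with 4 lower at an unadjusted p under 0.05, where 293 of 20659 features were lower at that level (510, or 2.47%, in both directions). The 4 are haemoglobin genes, and the list's median was 0.02, -0.55, -1.60 and 0.13 in pairs 1 to 4, so pair 3 holds most of it. These 4 moved together, at -1.91 to -1.56 in pair 3, so they do not count as 4 separate results. The measured red cell genes that are not haemoglobins, Alas2 and Slc4a1, had means of -0.05 and -0.02. Of 9 lipid-associated macrophage and 9 stellate cell and fibroblast markers all were measured, with medians of -0.33 and -0.35 and with 4 and 5 lower at an unadjusted p under 0.05, against the same 293 of 20659 features. Their medians in pairs 1 to 4 were 0.26, -0.61, -0.71 and -0.17 for the macrophage markers and 0.11, -0.84, -0.61 and 0.12 for the stellate cell markers, and the latter were above 0 in the pairs with squalene in Cy5 and below 0 in those with squalene in Cy3, as Trf and Ftl1 were. Endothelial markers (8 of 8) had a median of -0.05 and proliferation markers (9 of 10) of 0.04, each with 0 at that level. The part of these cell types in the ratios of the iron genes was not tested. Repeat arrays of one pair differed for the 10 iron genes by a median of 0.065 (pair 1) and 0.026 (pair 2) on the log2 scale, and at most by 0.25 (Hfe2, pair 1).

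**Figure D5:**
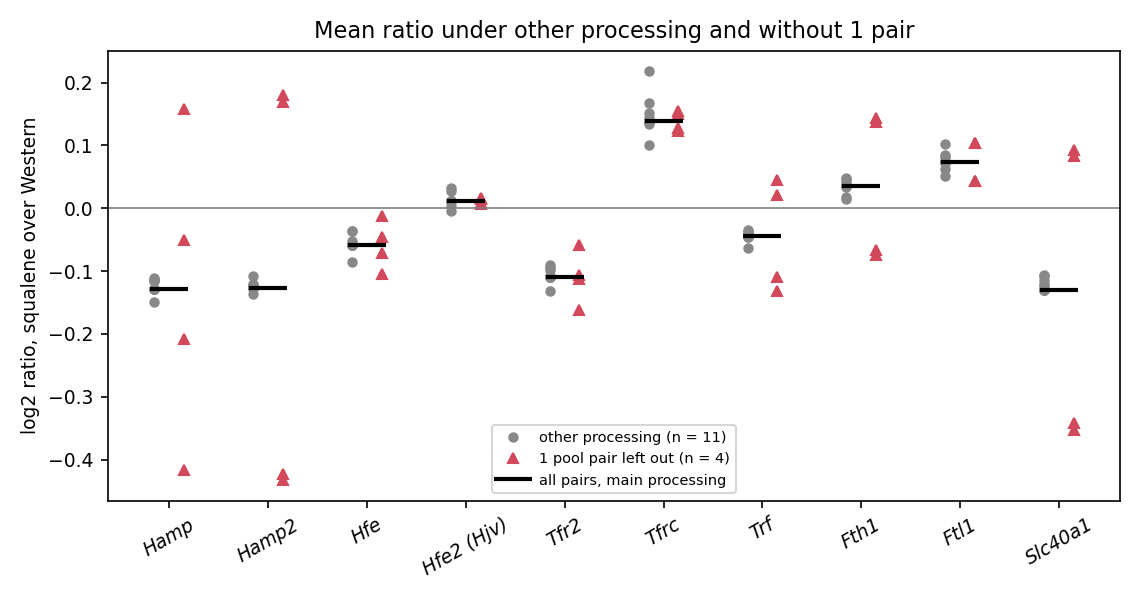
Mean log2 ratio of squalene over Western (vertical axis) for each iron gene with all pairs (bar), under 11 other settings of the processing (grey circles) and with 1 pool pair left out (triangles). For Tfrc the other settings run from 0.10 to 0.22, wider than with a pair left out (0.12 to 0.15). Leaving out a pair moves Hamp from -0.42 to 0.16, Hamp2 from -0.43 to 0.18 and Slc40a1 from -0.35 to 0.09, beyond the range of their other settings.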

How the data were processed

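Liver RNA pools were compared on 6 two-colour Agilent arrays covering 4 pool pairs on 2 slides. Pairs 1 and 2 were repeated on both slides. The deposited scanner files hold the median intensity of each spot and of its background. Per the file headers, Agilent Feature Extraction 10.7.3.1 read them and also wrote a processed intensity, a log10 ratio of red over green, and other marks for outliers, controls and signal above background. A value table that the authors deposited gives log10 of squalene over Western from unnormalised median signals, equal to the scanner values within 0.001 for 99.93% to 99.94% of spots; its making is otherwise not given in the sources used here. Its column medians were 0.254 and 0.27 (pair 1), -0.217 and -0.257 (pair 2), -0.27 (pair 3) and 0.259 (pair 4). The columns of pair 1 each hold 2 cells too large for a log ratio, so their deposited unit was recorded as a score; without those cells they were used as log10 ratios like the other columns.

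Background was corrected by normexp with an offset of 50, and arrays were normalised by loess, in limma 3.58.1 (R 4.3.3, with version 1.17.8 of data.table). Controls had weight 0 and outlier spots were left out. Mean spot signals were not used here, so the alternative planned on them was run as no background correction. Of 62976 spots, 48.67% to 54.16% per channel were well above background and none was saturated; the number of arrays limits the precision. RefSeq accessions (GRCm38.p6) named 26762 of 55681 probes; the files use mm9, so that source gives no gene coordinates here. Spots and repeat arrays were averaged. A probe was kept where well above background in at least 3 of 4 pairs in 1 diet, and the brightest probe stood for a gene.

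The linear model (lmFit, eBayes) held the squalene effect and a dye intercept, with Benjamini-Hochberg adjustment over 20659 features; prior and residual degrees of freedom were 3.04 and 2. Intervals are 95% from this fit. Levels are log2 intensity per channel after loess and Aquantile. The script was tested on simulated data. Named genes were all 10 iron genes, the 4 genes of smallest unadjusted p in each of 5 pathway lists, and the 5 nearest to Hamp; 8 marker lists are given by counts and medians. The genes and lists were chosen with earlier results of these data known. Alternatives covered background, normalisation, the deposited table, filters, dye term, slide, probes, variance model and each pair left out; slide 1 alone was added after seeing the data.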

Additional observations from a re-analysis of the deposited data

Results flagged for a closer look

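In 2 of 35 named genes, each with 4 pool pairs, 1 pair stood far from the other 3 by Dixon's criterion, which chance alone meets in about 1 group in 20. Bmp6 had a log2 ratio of -0.0716 in pair 2, against 0.25 to 0.26 in the other 3 pairs. Fbxl5 had 0.358 in pair 3, against -0.06 to -0.01 in the others. None of the 10 iron genes had such a pair.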

How the results depend on the processing

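None of the 10 iron genes passed an adjusted p of 0.05 under any setting run (limma, Benjamini-Hochberg). Features past it numbered 0 with the main settings, 8 with the deposited table, 2 with median centring and 4 with the 6 arrays kept apart, slide as a term and the pair as a random block. Features at an unadjusted limma p under 0.05 numbered 510, against 183 with the deposited table, 201 with median centring, 935 with no probe filter, 254 with no dye term and 363 to 1309 with a pair left out. The count of iron genes at that level was 1, and 0 with the deposited table, median centring, the stricter filter, no dye term, slide 2 only, the random block, the mean over probes and eBayes with trend and robust; it was 0 to 1 with a pair left out, the 1 being Hamp without pair 1. Their median ratio of -0.05 ran from -0.09 to 0.09 with a pair left out. The cause of these changes was not tested.

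Hfe2 (Hjv) turned to -0.0046 with slide 2 only. With a pair left out, ratios ran from -0.42 to 0.16 for Hamp, -0.43 to 0.18 for Hamp2, -0.132 to 0.0443 for Trf, -0.0745 to 0.144 for Fth1 and -0.353 to 0.0933 for Slc40a1, with both signs, while the other 5 kept theirs. Such a fit leaves 1 pair in 1 dye orientation, which is assumed to vary like the rest.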
